A study of Mus musculus with 54 samples.

Results

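Slc2a5, Khk, Tkfc, Akr1b3 and Sord, which together carry fructose into the cell, make it from glucose and break it down, were followed in the late proximal tubule of the diabetic mouse kidney. The 5 genes were chosen by name, for their roles in fructose uptake and the polyol pathway, and all 5 were among the 19068 genes of the deposited expression table. All 5 had a value above 0 in each of the 52 libraries and passed the filter on low values, a mean of at least 1 TPM. TPM is by definition a transcript level scaled by length and by the library's total. No measured value was used to choose the 5 genes, but earlier results of these data were known.

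The mice were DBA males of 14 weeks, either nondiabetic (Ins2+/+) or diabetic littermates with 1 Akita allele of Ins2 (Ins2 Akita/+), an insulin gene whose mutant product misfolds and costs the animal its beta cells. Each kind was wild-type or knockout for Sglt1 (Sglt1-/-), the sodium-glucose carrier of the late proximal tubule that is encoded by Slc5a1. The treatments ran for 2 weeks: vehicle, the SGLT2 inhibitor dapagliflozin at 10 mg per kg of diet or, in Akita wild-type mice alone, the GLP1 receptor agonist semaglutide at 3 nmol per kg of body weight a day under the skin. Tubules that stained for the lectin LTL and not for SGLT2 were cut out with a laser, 70 to 80 per sample, and their RNA was sequenced. The 9 groups had 6 libraries each, except for the Akita wild-type groups on dapagliflozin and on semaglutide, which had 5 each. The Sglt1 deletion is present throughout the body of the knockout mice as far as the labels say, and the labels do not tie libraries to animals, so that p-values measure the spread between libraries and would be too small if libraries shared an animal.

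Fructose can enter the late proximal tubule through GLUT5, the carrier encoded by Slc2a5. Inside the cell ketohexokinase (Khk) phosphorylates it to fructose 1-phosphate, which is then split, and triokinase (Tkfc) phosphorylates the glyceraldehyde that is released, so that both carbon fragments join glycolysis or gluconeogenesis. The polyol pathway is the cell's own source of fructose: aldose reductase (Akr1b3 in the mouse) reduces glucose to sorbitol, and sorbitol dehydrogenase (Sord) oxidises sorbitol to fructose. Aldose reductase is also an enzyme of the osmotic response, in which the factor NFAT5 raises sorbitol in cells of the renal medulla. Rapid phosphorylation of fructose uses up ATP and ends in the breakdown of adenine nucleotides to uric acid.

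In diabetes averaged over genotype and treatment 4 of the 5 genes rose, where 0.784% of all genes tested did. The count was 2 in wild-type mice on vehicle, and 1 in the averaged comparison with a marker score of other cells in the model. The promoters are shown because of the averaged comparison. They run from 250 bases before to 50 bases after the RefSeq gene start on the mouse build GRCm38.p6 and are printed 5′ to 3′ on the strand of the gene; the table used matched 4 of the 5 genes and Akr1b3 was not among them. Capitals mark matches to any of 5 motifs searched on both strands: CACGTG (an E-box, the unit of the carbohydrate response element that ChREBP binds), a pair of CACGTG boxes 5 bases apart (that element in its strict form), TGGAAA (the core of the tonicity element that NFAT5 binds), TATAAA (the TATA box) and GTTAAT (a half-site of HNF1). By construction the pair of boxes overlaps the single E-box.
Slc2a5: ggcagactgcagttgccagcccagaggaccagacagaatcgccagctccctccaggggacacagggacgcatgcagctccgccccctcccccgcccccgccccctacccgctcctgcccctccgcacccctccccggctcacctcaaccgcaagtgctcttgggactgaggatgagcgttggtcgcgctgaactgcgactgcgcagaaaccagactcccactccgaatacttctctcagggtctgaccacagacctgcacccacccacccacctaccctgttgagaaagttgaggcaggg
Khk: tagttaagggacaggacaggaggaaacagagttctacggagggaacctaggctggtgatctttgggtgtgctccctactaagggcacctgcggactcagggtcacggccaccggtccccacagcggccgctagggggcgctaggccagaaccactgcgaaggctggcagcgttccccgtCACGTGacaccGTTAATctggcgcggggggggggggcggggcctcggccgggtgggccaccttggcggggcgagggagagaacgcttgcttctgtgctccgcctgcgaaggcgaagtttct
Tkfc: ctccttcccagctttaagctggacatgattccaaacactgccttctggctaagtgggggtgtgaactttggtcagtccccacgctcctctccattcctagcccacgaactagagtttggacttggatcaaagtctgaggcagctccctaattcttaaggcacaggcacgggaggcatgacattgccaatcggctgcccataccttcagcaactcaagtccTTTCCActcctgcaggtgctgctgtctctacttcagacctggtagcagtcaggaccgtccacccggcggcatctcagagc
Sord: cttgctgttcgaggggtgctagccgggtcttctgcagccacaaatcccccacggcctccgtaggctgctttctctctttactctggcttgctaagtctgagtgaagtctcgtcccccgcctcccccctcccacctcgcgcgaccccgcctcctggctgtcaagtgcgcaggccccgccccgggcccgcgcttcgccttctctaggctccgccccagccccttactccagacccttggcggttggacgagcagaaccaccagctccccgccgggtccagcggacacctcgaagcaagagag

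The Slc2a5 window lies on the plus strand at chr4:150119094-150119393, the Khk window on the plus strand at chr5:30921309-30921608, the Tkfc window on the minus strand at chr19:10604209-10604508 and the Sord window on the plus strand at chr2:122234589-122234888. The Khk window held an E-box that begins at position -71 from the start and an HNF1 half-site that begins at position -60. The Tkfc window held the tonicity core on the opposite strand (TTTCCA), beginning at position -30. This window lies inside the GENCODE M21 span of Tkfc, which on the minus strand starts at 10605654, and so not at the GENCODE start. The RefSeq starts of Slc2a5, Khk and Sord lie downstream of their GENCODE starts too. Both Khk sites thus fall inside the GENCODE span of Khk, which starts at 30921431. The letters of the 5 motifs were not found in the windows of Slc2a5 and Sord. Of 32851 promoters of the same length, 7.15% held CACGTG, 21.4% TGGAAA, 13.6% TATAAA and 7.10% GTTAAT, and 0% held the pair of boxes. The Slc2a5, Khk and Sord windows were rich in G and C (65.3, 65.7 and 66.7% of bases, against a median of 52.7% over all promoters) and the Tkfc window was close to that median at 54.7%.

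In GENCODE M21 (GRCm38) Slc2a5 spans 150119283 to 150144169 on chromosome 4, Khk 30921431 to 30931248 on chromosome 5, Tkfc 10587791 to 10605654 on chromosome 19, Sord 122234749 to 122265340 on chromosome 2 and Akr1b3 34302434 to 34317478 on chromosome 6, all as protein-coding genes. Averaged over the 52 libraries the level was 440 TPM for Khk, 419 TPM for Sord, 349 TPM for Tkfc, 327 TPM for Slc2a5 and 55.7 TPM for Akr1b3. Khk, Sord, Tkfc and Slc2a5 thus stood at the 99.02, 98.97, 98.5 and 98.4 percentile of all genes in the table by mean level, and Akr1b3 at the 85.3 percentile. Aldose reductase, the entry enzyme of the polyol pathway, was therefore the least abundant of the 5 transcripts. Its relative Akr1b8 was at about 1 TPM (1.01 ± 0.77 TPM in Akita and 1.33 ± 1.65 TPM in nondiabetic libraries, SD, n = 23 and 24, without semaglutide). Relatives differed widely in level. In the same Akita and nondiabetic libraries Akr1b7 was at 0.51 and 0.91 TPM, Akr1b10 at 27.5 and 26.2 TPM and Akr1a1 at 399 and 323 TPM.

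Markers of the labelled S3 segment were present in every library, with 1 exception among 10. Slc7a13, a cystine carrier that marks the S3 segment, ranged from 223 to 1529 TPM, and the 10 S3 markers summed to 4244 to 12625 TPM, to which Atp11a (median 4418 TPM) and Acy3 (median 2190 TPM) gave the most. Of the same list, Cyp4a14 had a median of 1.53 TPM and was at 0 in 2 libraries, and Slco1a1 went down to 4.58 TPM. The 10 markers of the S1 and S2 segments summed to 183 to 1208 TPM. Slc5a2, which encodes SGLT2 and by whose absence the tubules were picked, was found at 3.93 to 205 TPM. Slc5a1 ranged from 27.3 to 103 TPM in the wild-type groups and from 0.15 to 1.34 TPM in the knockout groups, and the ranges did not overlap. The TPM of a library summed to 984393 to 2253870, and mitochondrial ribosomal RNA made up 20.3 to 52.3% of that sum. Values scaled to a library's total would give the same sum in each. The total behind the deposited values is thus unknown, and levels may not share 1 scale across libraries. RNA of other cells was present throughout: of 58 markers of distal segments, collecting duct, endothelium, macrophages, stroma and podocytes, 43 were above 0 in every library and the other 15 were at 0 in some. The sources used here give no read numbers, and the depth behind each value is unknown.

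Slc2a5 varied most of the 5 genes between libraries, from 86.3 to 829 TPM, a 9.61-fold range, against 3.40-fold for Sord to 4.39-fold for Akr1b3 among the others. In nondiabetic mice its mean was 228 ± 150 TPM in wild-type vehicle, 185 ± 113 TPM in knockout vehicle, 317 ± 128 TPM in wild-type dapagliflozin and 258 ± 103 TPM in knockout dapagliflozin libraries (SD, n = 6 each). In Akita mice it was 535 ± 107 TPM in wild-type vehicle, 358 ± 119 TPM in knockout vehicle and 407 ± 217 TPM in knockout dapagliflozin libraries (n = 6 each), and 405 ± 127 TPM in wild-type dapagliflozin and 243 ± 112 TPM in wild-type semaglutide libraries (n = 5 each). The untreated diabetic wild-type group was thus the highest of the 9 and the untreated nondiabetic knockout group the lowest. Semaglutide placed Akita wild-type mice seventh, between the nondiabetic dapagliflozin knockout and the nondiabetic vehicle wild-type groups.

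Khk followed the same order at both ends. Its mean in nondiabetic mice was 346 ± 118 TPM in wild-type vehicle, 293 ± 72.5 TPM in knockout vehicle, 478 ± 123 TPM in wild-type dapagliflozin and 398 ± 108 TPM in knockout dapagliflozin libraries. In Akita mice it was 623 ± 149 TPM in wild-type vehicle, 473 ± 142 TPM in knockout vehicle, 524 ± 125 TPM in wild-type dapagliflozin, 476 ± 97.7 TPM in knockout dapagliflozin and 349 ± 138 TPM in wild-type semaglutide libraries. Tkfc had the same group at the top and the same group at the bottom as Slc2a5 and Khk. Its nondiabetic means were 270 ± 80.2 TPM (wild-type vehicle), 257 ± 37.7 TPM (knockout vehicle), 366 ± 106 TPM (wild-type dapagliflozin) and 302 ± 60.7 TPM (knockout dapagliflozin). Its Akita means were 465 ± 67.3 TPM (wild-type vehicle), 388 ± 96.3 TPM (knockout vehicle), 402 ± 57.1 TPM (wild-type dapagliflozin), 397 ± 90.8 TPM (knockout dapagliflozin) and 296 ± 64.5 TPM (wild-type semaglutide).

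The polyol enzymes were ordered in another way. Sord had its highest mean in the Akita wild-type vehicle group too, at 497 ± 48.4 TPM, followed by Akita knockout vehicle at 481 ± 107 TPM, Akita wild-type dapagliflozin at 467 ± 91.1 TPM, Akita wild-type semaglutide at 459 ± 85.3 TPM and Akita knockout dapagliflozin at 419 ± 66.05 TPM. Its 4 nondiabetic means were all lower than those 5, with 415 ± 89.9 TPM in wild-type dapagliflozin, 367 ± 46.9 TPM in knockout vehicle, 340 ± 93.0 TPM in wild-type vehicle and 339 ± 62.5 TPM in knockout dapagliflozin libraries. Unlike the other genes, Akr1b3 had its lowest mean in the Akita wild-type vehicle group, at 46.1 ± 5.44 TPM. Its means were 47.2 ± 7.81 TPM in nondiabetic wild-type vehicle, 49.5 ± 10.8 TPM in Akita wild-type semaglutide, 49.7 ± 16.0 TPM in nondiabetic knockout vehicle, 52.9 ± 18.7 TPM in nondiabetic knockout dapagliflozin and 57.99 ± 19.1 TPM in Akita knockout vehicle libraries. The 3 highest were 63.6 ± 28.3 TPM in Akita knockout dapagliflozin, 67.2 ± 24.6 TPM in Akita wild-type dapagliflozin and 68.0 ± 24.0 TPM in nondiabetic wild-type dapagliflozin. For each of the 5 genes, every pair of groups that stood next to each other in the order of means differed by less than the larger of their SDs, so that the order of neighbours is not resolved.

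**Figure D1:**
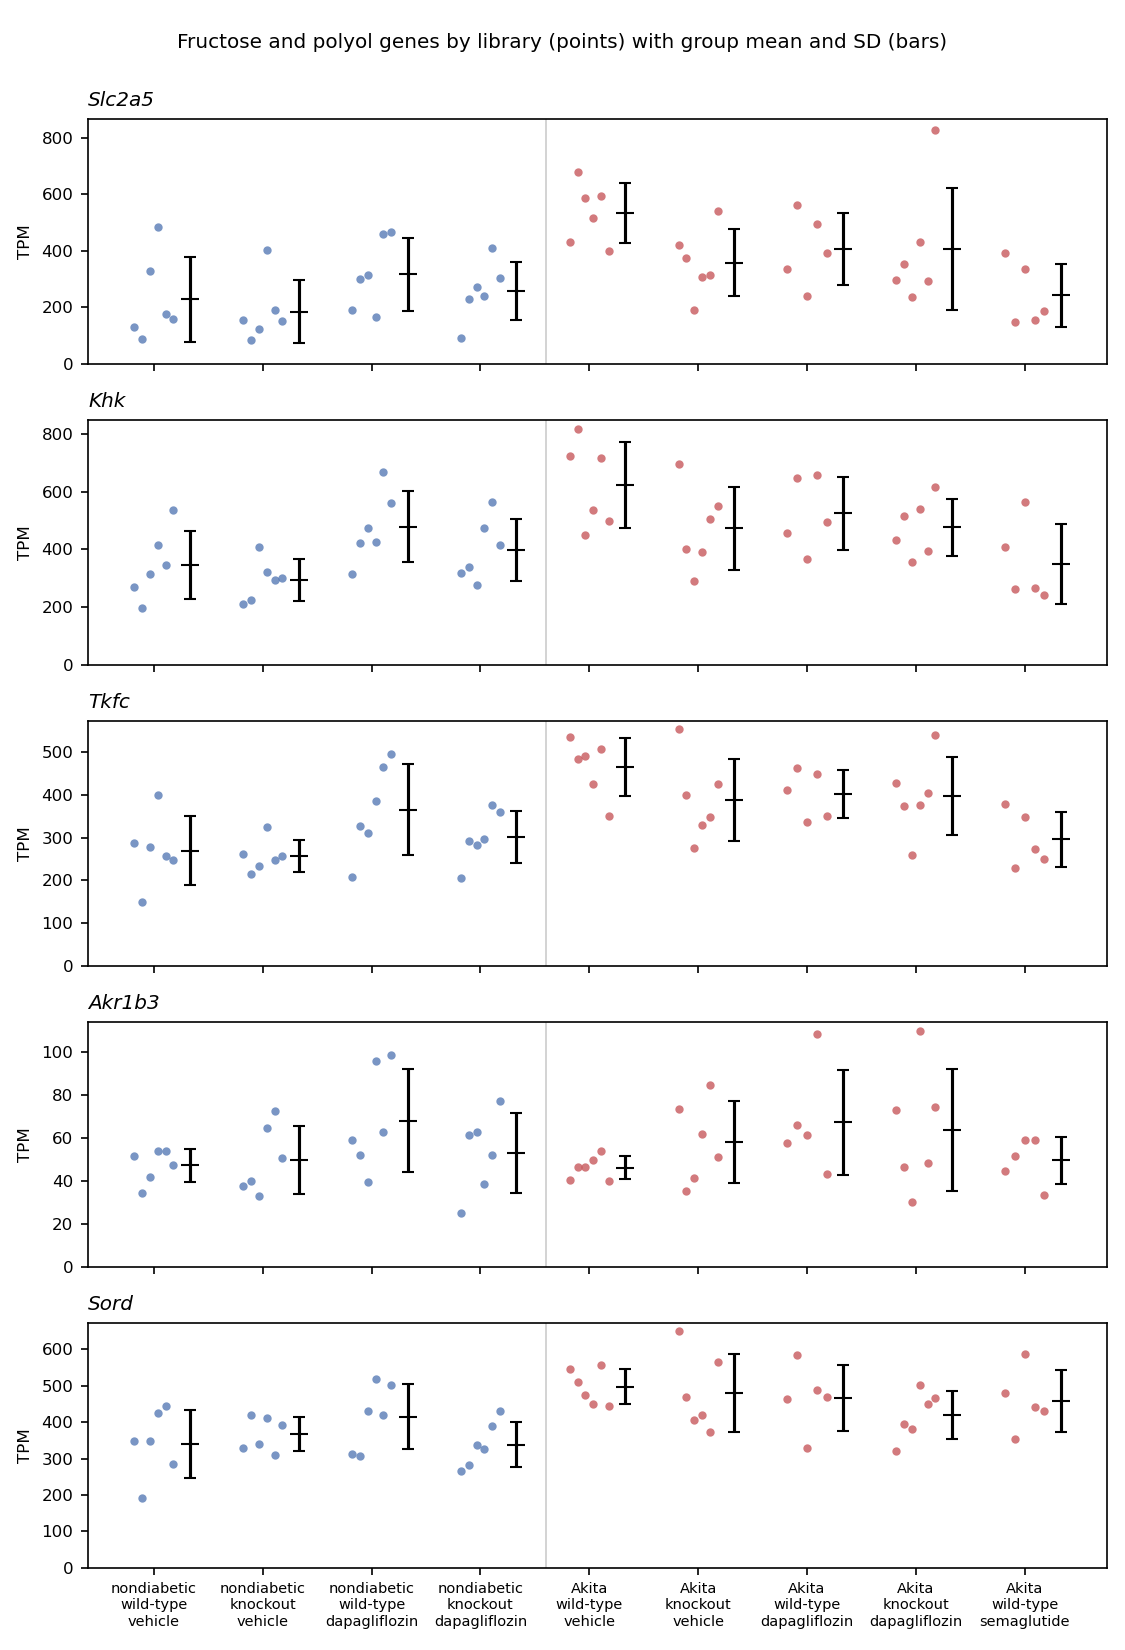
Level in TPM (vertical axes, starting at 0) of Slc2a5, Khk, Tkfc, Akr1b3 and Sord in each of the 52 libraries (points), by group (horizontal axis), with the group mean and SD beside them; nondiabetic groups are blue and Akita groups red. Slc2a5, Khk, Tkfc and Sord have their highest mean in Akita wild-type vehicle mice, where Akr1b3 has its lowest at 46.1 TPM.

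The effect of diabetes was read first in wild-type mice on vehicle, as the difference in log2(TPM + 1) between Akita and nondiabetic libraries. Slc2a5 and Tkfc rose, Khk and Sord were higher without passing the threshold of an adjusted p of 0.05 and Akr1b3 hardly differed. Members that rose thus numbered 2 of 5, where 0.337% of the 15424 genes tested rose and 0.389% (60 genes) passed in either direction. The median difference was 0.83 over the 5 genes and 0.05 over all genes tested.

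For Slc2a5 the Akita libraries ran from 399 through a median of 552 to 681 TPM, and the nondiabetic libraries from 88.8 through 168 to 486 TPM. The groups overlapped, with all 6 Akita libraries above the nondiabetic median and 2 nondiabetic libraries well above their fellows, as the plot of levels by library shows. The difference was 1.44 ± 0.35 (SE), a 2.71-fold higher level, with an adjusted p of 0.0453 in limma. For Tkfc the Akita libraries ran from 350 through 487 to 536 TPM and the nondiabetic ones from 150 through 267 to 399 TPM. They overlapped as well, with all 6 Akita libraries above the nondiabetic median, and the difference was 0.83 ± 0.19 (limma, adjusted p = 0.0221).

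Khk ran from 449 through 625 to 817 TPM in Akita and from 196 through 331 to 535 TPM in nondiabetic libraries. Again the lowest of the 6 Akita libraries exceeded the median of the nondiabetic ones, but the difference of 0.88 ± 0.23 had an adjusted p of 0.0672 in limma. Sord was the one gene of the 5 whose groups did not overlap in this comparison, a property shared by 0.733% of all genes tested: its Akita libraries ran from 444.5 through 493 to 558 TPM and its nondiabetic libraries from 191 through 348 to 444.1 TPM. The gap between the groups was small, and the difference of 0.59 ± 0.17 had an adjusted p of 0.0962 in limma. Akr1b3 ran from 39.7 through 46.5 to 53.9 TPM in Akita and from 34.6 through 49.5 to 54.1 TPM in nondiabetic libraries. The groups covered almost the same range, with a difference of -0.02 ± 0.25 (limma, adjusted p = 0.988).

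The 2 calls in wild-type vehicle mice were lost when certain single libraries were left out. Slc2a5 no longer passed without any one of nondiabetic replicates 1, 2 and 6 or Akita replicates 1 to 5, with adjusted p from 0.0584 to 0.179 in limma, and Tkfc no longer passed without nondiabetic replicate 2 or any one of Akita replicates 1, 2, 4 and 5, with adjusted p from 0.0508 to 0.132. RNA of other cells moved with this comparison: the score of other cell types, the mean log2(TPM + 1) of their 58 markers, was 3.79 ± 0.50 in nondiabetic and 3.48 ± 0.24 in Akita wild-type vehicle libraries (SD, n = 6 each). The summed level of these markers ran from 2090 to 4696 TPM in the former and from 2097 to 3198 TPM in the latter. By median over all libraries Aqp4 (694 TPM), Umod (519 TPM) and Csf1r (320 TPM) were the highest of the 58. Others of the same lists were far lower, such as Aqp2 (26.6 TPM) and C1qa (4.02 TPM). The sum thus leans on a few genes, and whether the tubules express these themselves was not tested. With the score of other cell types in the model the difference was 1.13 for Slc2a5 (limma, adjusted p = 0.184) and 0.69 for Tkfc (adjusted p = 0.108), and 0 of the 5 genes passed. The sum of TPM moved too, with a mean of 1422237 TPM in nondiabetic and 1857901 TPM in Akita libraries, of which mitochondrial ribosomal RNA made up 33.4 ± 6.57% and 40.1 ± 5.91%. With libraries rescaled after removing that RNA, the median difference of all genes moved to -0.18 and neither gene passed: Slc2a5 was at 1.19 (1.36 relative to that median, adjusted p = 0.115 in limma) and Tkfc at 0.58 (0.75 relative to it, adjusted p = 0.141). The part that either plays in the result was not tested beyond these fits. In bulk tubules a change in the share of cells cannot be told apart from a change of RNA within each cell.

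In the other 3 strata the fructose genes were higher in Akita mice on average, but 0 of the 5 genes passed in each. In knockout mice on vehicle, where 0% of all genes passed (1026 of them had an unadjusted p under 0.05 in limma), the differences were 1.05 ± 0.35 for Slc2a5, 0.67 ± 0.23 for Khk, 0.57 ± 0.19 for Tkfc, 0.37 ± 0.17 for Sord and 0.21 ± 0.25 for Akr1b3. At an unadjusted p under 0.05, 4 of the 5 would count there. In wild-type mice on dapagliflozin (0.00648% of all genes passed) they were 0.40 ± 0.37, 0.14 ± 0.24, 0.18 ± 0.20, 0.18 ± 0.17 and -0.01 ± 0.27 in the same order of genes, with 0 of 5 at an unadjusted p under 0.05 in limma. In knockout mice on dapagliflozin (0% of all genes, 790 at an unadjusted p under 0.05 in limma) they were 0.65 ± 0.35, 0.28 ± 0.23, 0.39 ± 0.19, 0.31 ± 0.17 and 0.23 ± 0.25, with 1 of 5 at an unadjusted p under 0.05. These 4 comparisons use separate libraries in both arms, and Slc2a5, Khk, Tkfc and Sord were above 0 in each of them.

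Averaged over the 4 strata with equal weight, Slc2a5, Khk, Tkfc and Sord rose in Akita mice and Akr1b3 did not pass. That is 4 of 5 genes, where 0.784% of all genes tested rose and 0.966% (149 genes) passed in either direction. Slc2a5 rose by 0.89 ± 0.18 (1.85-fold, adjusted p = 0.00393 in limma), with 22 of 23 Akita libraries above the nondiabetic median. Tkfc rose by 0.49 ± 0.10 (adjusted p = 0.0024 in limma, 21 of 23 libraries), Khk by 0.49 ± 0.11 (adjusted p = 0.0194, 22 of 23) and Sord by 0.36 ± 0.08 (adjusted p = 0.0186, 21 of 23). Akr1b3 differed by 0.10 ± 0.13 (adjusted p = 0.777 in limma), with 11 of 23 Akita libraries above the nondiabetic median. Transcripts of the fructose carrier, of both enzymes of fructose breakdown and of the second polyol enzyme were thus higher, and that of aldose reductase did not pass.

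These calls held when any single library was left out. They did not all hold when RNA of other cells was taken into account: with their marker score in the model Tkfc passed alone (0.40, adjusted p = 0.0487 in limma), while Slc2a5 was at 0.67 (adjusted p = 0.0836), Khk at 0.33 (adjusted p = 0.236) and Sord at 0.25 (adjusted p = 0.215). Endothelial markers were lower in Akita mice in 10 of 10 genes (median difference -0.21), macrophage and dendritic markers in 10 of 11 (-0.46), stromal markers in 9 of 10 (-0.16) and podocyte markers in 5 of 5 tested (-0.41). Markers of the S3 segment hardly moved, with a median difference of 0.04. The 3 highest scores of other cell types (4.51, 4.29 and 4.13) belonged to nondiabetic libraries: replicates 1 and 2 of the wild-type vehicle group and replicate 3 of the knockout dapagliflozin group. Without these 3 libraries Slc2a5 (0.71, adjusted p = 0.0249 in limma) and Tkfc (0.43, adjusted p = 0.00958) passed and Khk (0.41, adjusted p = 0.0859) and Sord (0.30, adjusted p = 0.0668) did not.

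**Figure D2:**
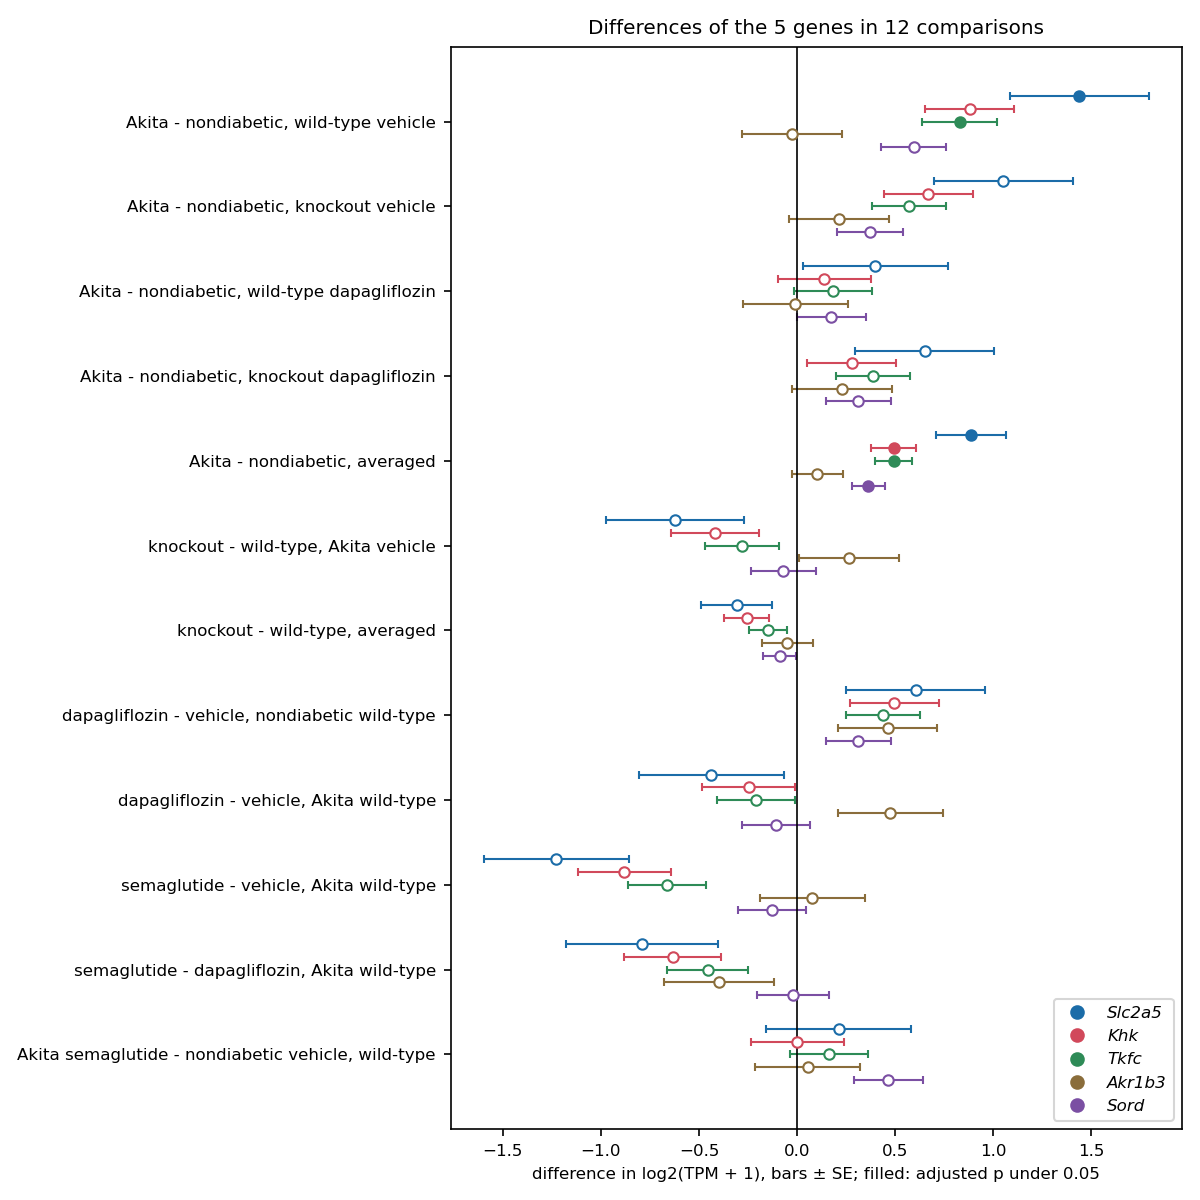
Difference in log2(TPM + 1) (horizontal axis, with bars of 1 SE) of Slc2a5, Khk, Tkfc, Akr1b3 and Sord in 12 comparisons (vertical axis), with filled points where the adjusted p in limma is under 0.05. Filled points stand in the wild-type vehicle and the averaged comparison of diabetes alone, and Slc2a5 lies farthest to the right in both, at 1.44 and 0.89.

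The genes around the 5 were read from lists of the same pathway, which also hold the 5 genes themselves. Of the fructose carriers 3 of 5 tested rose in the averaged comparison of diabetes and 0 fell, with a median difference of 0.67 against 0.03 over all genes tested, of which 0.784% rose. With the marker score of other cells in the model 2 of the 5 passed and Slc2a5 did not (0.67, adjusted p = 0.0836 in limma), and 2 passed with libraries rescaled without mitochondrial ribosomal RNA. Beside Slc2a5 these were Slc5a10, a sodium-coupled mannose and fructose carrier, and Slc2a2, which encodes GLUT2, the glucose and fructose carrier of the basolateral side. Slc5a10 was at 567 ± 243 TPM in nondiabetic and 900 ± 217 TPM in Akita libraries (SD, n = 24 and 23), a difference of 0.75 ± 0.14 (limma, adjusted p = 0.00124). Slc2a2 was at 17.6 ± 7.80 and 27.5 ± 8.72 TPM, a difference of 0.67 ± 0.16 (limma, adjusted p = 0.0271).

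Of the enzymes of fructolysis and of the fates of triose 6 of 16 tested rose (0.784% of all genes tested did) and 0 fell, with a median difference of 0.30. The 6 include Khk and Tkfc, whose rise is given above. Pklr, the pyruvate kinase of liver and proximal tubule at the end of glycolysis, rose from 49.3 ± 25.1 to 99.7 ± 29.9 TPM (1.10 ± 0.16, adjusted p = 2.2e-05 in limma). Gpd2, the mitochondrial glycerol 3-phosphate dehydrogenase, rose from 65.6 ± 29.7 to 110 ± 25.5 TPM (0.83 ± 0.12, adjusted p = 3.1e-05 in limma), and its cytosolic partner Gpd1 from 122 ± 34.9 to 161 ± 40.8 TPM (0.40 ± 0.11, adjusted p = 0.0492). With the marker score of other cells in the model 3 of the 16 passed.

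Of the polyol enzymes and their relatives 2 of 8 tested rose (0.784% of all genes tested did) and 0 fell, with a median difference of 0.24. They were Sord and Xylb, the kinase of xylulose, which was at 192 ± 36.9 TPM in nondiabetic and 238 ± 35.4 TPM in Akita libraries (0.32 ± 0.07, adjusted p = 0.0202 in limma). Akr1b8 differed by -0.06 ± 0.19 (adjusted p = 0.925 in limma). With that marker score in the model 0 of the 8 passed, and without the 3 libraries named above 0 passed either. Of 11 factors and targets of ChREBP and MondoA, the sensors of sugar phosphates, 4 rose (0.784% of all genes tested did) and 0 fell. The median difference was 0.26, and at an unadjusted p under 0.05 in limma 6 were higher and 1 lower. The 4 that rose were Slc2a5, Khk, Tkfc and Pklr, all counted above. With the score in the model 2 of the 11 passed.

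Of 10 genes of the osmotic response 0 passed (limma, 0 higher and 3 lower at an unadjusted p under 0.05), and 2 of 10 were above 0, with a median difference of -0.13. Of 5 genes of hexose phosphorylation and glucose entry 0 passed (limma, 0 higher and 1 lower at an unadjusted p under 0.05; median difference -0.02). Of 6 enzymes of purine breakdown 0 rose and 1 fell, where 28 of the 15424 genes tested fell. The 1 was Xdh, which makes uric acid. Xdh was at 25.2 ± 12.2 TPM in nondiabetic and 15.7 ± 8.85 TPM in Akita libraries (-0.70 ± 0.19, adjusted p = 0.0487 in limma). That call was lost with no filter on low values, with rescaling without mitochondrial ribosomal RNA, with array weights, with the marker score of other cells in the model, without the 3 libraries and in a fit of the 8 groups alone. Macrophage and endothelial markers were lower in the same libraries, and their part in the Xdh value was not tested beyond the covariate.

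**Figure D3:**
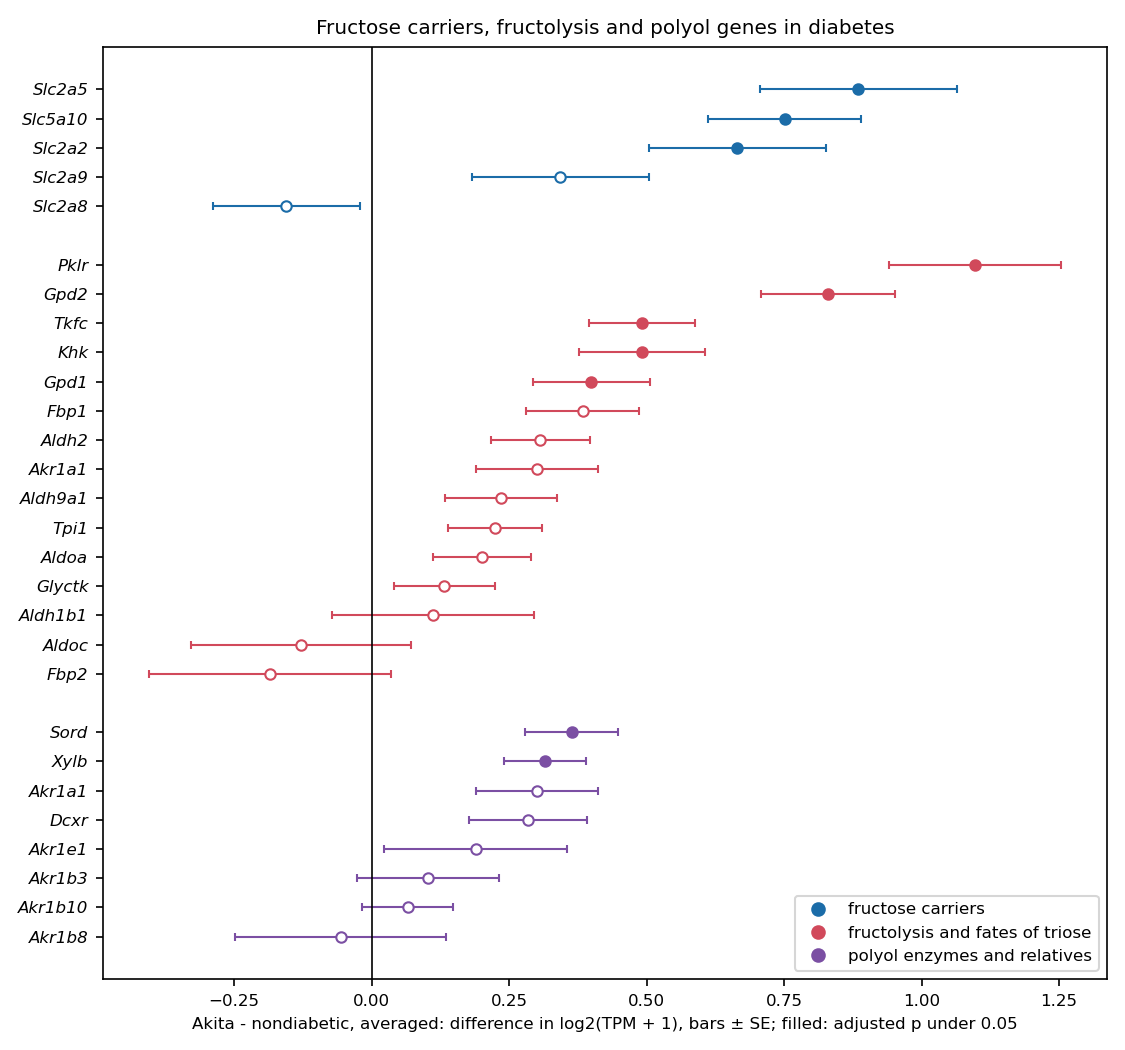
Difference in log2(TPM + 1) between Akita and nondiabetic libraries averaged over 4 strata (horizontal axis, with bars of 1 SE) for tested fructose carriers, enzymes of fructolysis and fates of triose, and polyol enzymes (vertical axis), with filled points where the adjusted p in limma is under 0.05; Akr1a1 belongs to both of the last lists. Pklr at 1.10 and Slc2a5 at 0.89 lie farthest to the right, and Akr1b3 at 0.10 is not filled.

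Loss of SGLT1 was read within each of 4 strata and averaged over them. Averaged, all 5 genes were lower in knockout than in wild-type mice but 0 of 5 passed, where 0.0519% of all genes (8) did: the differences were -0.31 ± 0.18 for Slc2a5, -0.26 ± 0.11 for Khk, -0.15 ± 0.10 for Tkfc, -0.09 ± 0.08 for Sord and -0.05 ± 0.13 for Akr1b3 (limma, adjusted p from 0.642 to 0.961; 1 of 5 at an unadjusted p under 0.05). Of the 15424 genes tested, 1113 had an unadjusted p under 0.05 in limma. For Sord and Akr1b3 the sign was the opposite with libraries rescaled without mitochondrial ribosomal RNA, at 0.02 and 0.06. The median over all genes moved to 0.10 with that rescaling, and relative to it Sord was at -0.08 and Akr1b3 at -0.04. Knockout libraries below the wild-type median numbered 18 of 24 for Slc2a5, Tkfc and Sord, 17 of 24 for Khk and 12 of 24 for Akr1b3.

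Among the strata, the widest difference was that of Slc2a5 in Akita mice on vehicle, at -0.62 ± 0.35, with all 6 knockout libraries (190 through a median of 344 to 541 TPM) below the wild-type median of 552 TPM. The ranges overlapped, since the lowest wild-type library was at 399 TPM. In the same stratum the differences were -0.42 ± 0.23 for Khk, -0.28 ± 0.19 for Tkfc, -0.07 ± 0.17 for Sord and 0.27 ± 0.25 for Akr1b3, and 0 of the 5 passed, where 0.0259% of all genes did. Members past the threshold were 0 of 5 as well in nondiabetic vehicle (differences from -0.24 to 0.15; 0.0195% of all genes passed), nondiabetic dapagliflozin (-0.37 to -0.25; 0.0324%) and Akita dapagliflozin (-0.15 to -0.04; 0.0195%). In each of these 4 strata 0 of the 5 genes had an unadjusted p under 0.05 in limma.

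Khk lies on the same chromosome as Slc5a1, 2172971 bases away, and the genes next to it were therefore read in the averaged comparison of knockout and wild-type mice. Of the 7 protein-coding genes tested that start within 100 kb of Khk, itself included, 1 passed. Cgref1, the next gene downstream of Khk and on the opposite strand, was at 196 ± 48.7 TPM in wild-type and 123 ± 32.6 TPM in knockout libraries (SD, n = 23 and 24), a difference of -0.66 ± 0.10 (limma, adjusted p = 3.3e-05), and 23 of 24 knockout libraries lay below the wild-type median. Khk itself was at 492 ± 159 and 410 ± 126 TPM (-0.26 ± 0.11, adjusted p = 0.642 in limma). The other 5, which are Tmem214, Agbl5, Ost4, Emilin1 and Preb, differed by -0.26 to 0.23 with adjusted p from 0.649 to 0.913 in limma.

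Dapagliflozin was compared with vehicle in each stratum. In nondiabetic wild-type mice all 5 genes were higher on dapagliflozin, by 0.60 ± 0.35 for Slc2a5, 0.50 ± 0.23 for Khk, 0.44 ± 0.19 for Tkfc, 0.31 ± 0.17 for Sord and 0.46 ± 0.25 for Akr1b3. Members past the threshold were 0 of 5, where 0.00648% of all genes passed (limma, adjusted p from 0.671 to 0.766). At an unadjusted p under 0.05 in limma were 2 of 5 members and 1085 of 15424 genes. The sum of TPM was higher in the same libraries, with a mean of 1847246 on dapagliflozin against 1422237 on vehicle, and the score of other cell types lower, at 3.53 ± 0.23 against 3.79 ± 0.50. With libraries rescaled without mitochondrial ribosomal RNA the differences were 0.32 for Slc2a5, 0.21 for Khk, 0.16 for Tkfc, 0.03 for Sord and 0.18 for Akr1b3, beside a median of -0.22 over all genes. With the marker score in the model they were 0.35, 0.30, 0.33, 0.18 and 0.37 in the same order, and without the 3 libraries of highest score 0.19, 0.24, 0.28, 0.14 and 0.39.

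In Akita wild-type mice Slc2a5, Khk, Tkfc and Sord were lower on dapagliflozin and Akr1b3 higher, with differences of -0.44 ± 0.37, -0.25 ± 0.24, -0.21 ± 0.20, -0.11 ± 0.17 and 0.47 ± 0.27. Akr1b3 was the farthest from 0 relative to its error, with an unadjusted p of 0.082 in limma. With libraries rescaled without mitochondrial ribosomal RNA it stood at 0.65, beside a median of 0.16 over all genes, and Sord at 0.07. Members past the threshold were 0 of 5 and 0% of all genes passed (limma; 0 of 5 members and 368 genes at an unadjusted p under 0.05). In nondiabetic knockout mice (differences from -0.13 to 0.53) and Akita knockout mice (-0.18 to 0.12) 0 of 5 passed too, as did 0% of all genes (limma; 0 of 5 members and 731 and 483 genes at an unadjusted p under 0.05). Averaged over the 4 strata the differences were 0.20 ± 0.18 for Slc2a5, 0.18 ± 0.11 for Khk, 0.12 ± 0.10 for Tkfc, -0.03 ± 0.08 for Sord and 0.27 ± 0.13 for Akr1b3, with 0 of 5 past the threshold and 0% of all genes (limma; 1 of 5 members and 631 genes at an unadjusted p under 0.05).

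Whether diabetes acted differently with and without dapagliflozin was tested as an interaction averaged over genotype. The difference between Akita and nondiabetic mice on dapagliflozin, less that on vehicle, was -0.72 ± 0.36 for Slc2a5, -0.57 ± 0.23 for Khk, -0.42 ± 0.19 for Tkfc, -0.24 ± 0.17 for Sord and 0.02 ± 0.26 for Akr1b3. Members past the threshold were 0 of 5, where 0.00648% of all genes passed (limma, adjusted p from 0.979 to 0.999). At an unadjusted p under 0.05 in limma were 3 of 5 members and 696 of 15424 genes. A difference between the treatments was thus not resolved. In wild-type mice alone the same interaction ran from -1.04 to 0.01 over the 5 genes, with 0 of 5 past the threshold and 0% of all genes (limma; 3 of 5 members and 681 genes at an unadjusted p under 0.05). The interaction of diabetes with the Sglt1 knockout ran from -0.07 to 0.24 averaged over treatments and from -0.39 to 0.24 on vehicle, again with 0 of 5 past the threshold and 0% of all genes (limma; 0 of 5 members at an unadjusted p under 0.05, and 514 and 618 genes). Akita knockout mice on dapagliflozin, which lack SGLT1 and have SGLT2 inhibited, differed from Akita wild-type mice on vehicle by -0.50 to 0.35, with 0 of 5 past the threshold, where 0.0324% of all genes passed (limma; 0 of 5 members at an unadjusted p under 0.05).

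Semaglutide went with the lowest levels of the fructose genes among the Akita groups, without a call in limma. Slc2a5 ran from 147 through a median of 189 to 391 TPM on semaglutide and from 399 through 552 to 681 TPM on vehicle, so that the 2 groups did not overlap, as was the case for 0.746% of all genes tested. The difference was -1.23 ± 0.37 (0.427-fold, adjusted p = 0.529 in limma). Khk ran from 243 through 266 to 565 TPM on semaglutide against 449 through 625 to 817 TPM on vehicle, a difference of -0.88 ± 0.24 (limma, adjusted p = 0.398). Tkfc ran from 229 through 274 to 378 TPM against 350 through 487 to 536 TPM, a difference of -0.67 ± 0.20 (limma, adjusted p = 0.507). For both genes the ranges overlapped, but 0 of 5 semaglutide libraries lay above the vehicle median, as for Slc2a5.

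The differences of the polyol enzymes were smaller, and no test compared the genes with each other. Sord ran from 354 through 442 to 588 TPM on semaglutide against 444 through 493 to 558 TPM on vehicle, and Akr1b3 from 33.5 through 51.4 to 59.1 TPM against 39.7 through 46.5 to 53.9 TPM. For both genes the vehicle range lay within the semaglutide range. For Sord, however, the semaglutide median was below the lowest vehicle library. The differences were -0.13 ± 0.17 for Sord and 0.08 ± 0.27 for Akr1b3 (limma, adjusted p = 0.998 for both). Over the 5 genes 0 passed, and over all genes 0% did (limma; 3 of 5 members and 800 of 15424 genes at an unadjusted p under 0.05). Slc5a10 had a lower mean on semaglutide too, with a difference of -1.17 ± 0.29 (limma, adjusted p = 0.273). The score of other cell types was 3.70 ± 0.19 on semaglutide and 3.48 ± 0.24 on vehicle, and with it in the model the differences were -1.01 for Slc2a5, -0.72 for Khk and -0.57 for Tkfc. The sum of TPM was lower on semaglutide, with a mean of 1513150 against 1857901 on vehicle. With libraries rescaled without mitochondrial ribosomal RNA the differences were -0.97 for Slc2a5, -0.62 for Khk and -0.41 for Tkfc, beside a median of 0.22 over all genes, and 0.13 for Sord. Markers of the S1 and S2 segments were higher on semaglutide in 9 of 10 genes (median difference 0.34) and S3 markers in 6 of 10 (0.01). With the S1 and S2 score in the model the differences were -1.17 for Slc2a5, -0.85 for Khk and -0.67 for Tkfc.

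Against dapagliflozin in Akita wild-type mice, semaglutide libraries differed by -0.79 ± 0.39 for Slc2a5, -0.63 ± 0.25 for Khk, -0.46 ± 0.21 for Tkfc and -0.40 ± 0.28 for Akr1b3, and by -0.02 ± 0.18 for Sord. Members past the threshold were 0 of 5 and 0% of all genes passed (limma; 3 of 5 members and 543 genes at an unadjusted p under 0.05). Marker levels moved with this comparison, though 0 markers of each list passed in limma. On semaglutide S3 markers were lower in 9 of 10 genes (median difference -0.24). Higher were the markers of the S1 and S2 segments in 10 of 10 (0.36) and of the proximal tubule as a whole in 6 of 8 (0.19). So were those of collecting duct in 11 of 11 (0.55), endothelium in 10 of 10 (0.25), macrophages and dendritic cells in 10 of 11 (0.25) and podocytes in 5 of 5 tested (0.74). The score of other cell types was 3.70 ± 0.19 on semaglutide and 3.40 ± 0.17 on dapagliflozin, and with it in the model the differences were -0.50 for Slc2a5, -0.42 for Khk, -0.33 for Tkfc, -0.30 for Akr1b3 and 0.13 for Sord. Against nondiabetic wild-type mice on vehicle, Akita wild-type mice on semaglutide differed by 0.21 ± 0.37 for Slc2a5, 0.00 ± 0.24 for Khk, 0.16 ± 0.20 for Tkfc, 0.47 ± 0.17 for Sord and 0.05 ± 0.27 for Akr1b3. Members past the threshold were 0 of 5, where 0.00648% of all genes passed. At an unadjusted p under 0.05 in limma were 1 of 5 members and 749 of 15424 genes. All 5 semaglutide libraries lay above the nondiabetic vehicle median for Sord, and 2 or 3 of 5 did for the other genes. The 3 comparisons of semaglutide share its libraries, and those of vehicle also serve the comparison of diabetes.

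Within groups the 5 genes varied together. The deviation of each library from its group mean was correlated for the 10 pairs of genes over the 52 libraries, with 100000 permutations within groups, and all 10 pairs passed after Benjamini-Hochberg adjustment over the 10. Their r ran from 0.342 through a median of 0.572 to 0.792. Over all pairs of the 15424 genes tested the median r was 0.007, and 5.18% of those pairs had an r at least as high as the lowest of the 10, 0.514% as the median and 0.0176% as the highest. The strongest was Slc2a5 with Tkfc (Pearson r 0.792, permutation p = 1e-05, the smallest these permutations can give; Spearman rho 0.754, p = 1e-05; r 0.768 without the 2 libraries farthest from the median of Slc2a5). Tkfc with Sord had r 0.722 and Khk with Tkfc r 0.696 (permutation p = 1e-05 for both; rho 0.715 and 0.686; r 0.651 and 0.662 without 2 libraries). The pairs with Akr1b3 had the 3 weakest values and 1 of middle size: r 0.342 with Khk (permutation p = 0.016, rho 0.333, 0.305 without 2 libraries), 0.357 with Sord (p = 0.014, rho 0.366, 0.339), 0.410 with Slc2a5 (p = 0.0057, rho 0.402, 0.388) and 0.511 with Tkfc (p = 0.00038, rho 0.499, 0.520). With median-ratio scaling 2 of the 10 pairs no longer passed, Khk with Akr1b3 at r 0.249 and Sord with Akr1b3 at 0.245, and the other 8 did. The 5 genes of a library also share its content of other cells.

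This content was read beside the 5 genes in the same way, in 20 relations adjusted together. The score of other cell types correlated within groups at r -0.513 with Khk (permutation p = 0.00055, adjusted 0.0022; rho -0.507; -0.465 without 2 libraries), -0.495 with Sord (p = 0.0023, adjusted 0.0077; rho -0.505; -0.496) and -0.429 with Slc2a5 (p = 0.0086, adjusted 0.021; rho -0.396; -0.359). With Tkfc it was at r -0.358 (permutation p = 0.031, adjusted 0.056; rho -0.325; -0.347) and with Akr1b3 at -0.211 (p = 0.13, adjusted 0.2; rho -0.178; -0.220), neither past the threshold. The score of S3 markers correlated at r 0.441 to 0.602 with the 5 genes, each past the threshold by Pearson's r (adjusted permutation p from 0.0004 to 0.015), with Tkfc highest and Slc2a5 lowest; for Slc2a5 the value fell to 0.279 without 2 libraries and rho, at 0.347, had an adjusted p of 0.051. The S1 and S2 marker score did not pass for any of the 5 (r from -0.225 to 0.032, adjusted permutation p from 0.21 to 0.95). That of proximal tubule markers passed for Tkfc (r 0.384, adjusted permutation p = 0.042, rho 0.400, 0.398 without 2 libraries). It did not pass for Sord (r 0.360, adjusted permutation p = 0.052), Akr1b3 (r 0.270), Slc2a5 (r 0.036) or Khk (r -0.001).

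**Figure D4:**
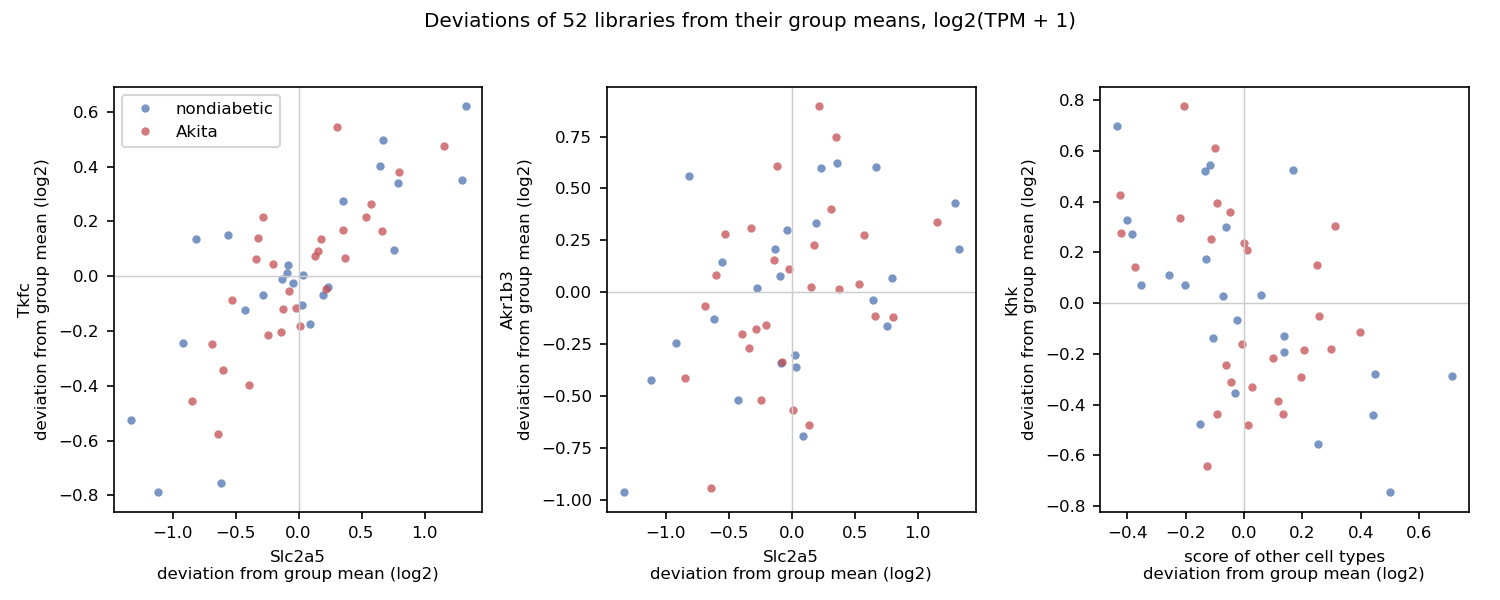
Deviation of each of 52 libraries from its group mean in log2(TPM + 1), with Tkfc against Slc2a5 (left), Akr1b3 against Slc2a5 (middle) and Khk against the score of other cell types (right); nondiabetic libraries are blue and Akita libraries red. Tkfc follows Slc2a5 at r 0.792, Akr1b3 follows it more loosely at r 0.410, and Khk falls as the score rises at r -0.513.

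Over all 52 libraries, with differences between groups included, the genes whose pattern was most like that of Slc2a5 among 12603 named genes were Slc5a10 (r 0.898), Tkfc (r 0.882) and Pklr (r 0.861). For Khk they included Slc5a10 (r 0.834) and Tkfc (r 0.824), and for Tkfc they included Slc2a5 (r 0.882) and Slc5a10 (r 0.860). The genes named for these 3 were thus fructose carriers, triokinase and pyruvate kinase. For Sord they were genes of other pathways: Sephs2, which makes selenophosphate (r 0.865), Aldh4a1 of proline breakdown (r 0.852) and Cryz, a quinone reductase (r 0.849). Akr1b3 had no gene as near, with Fam3a (r 0.629), Ppt2, a lysosomal thioesterase (r 0.622), and Hsd17b11 (r 0.613) at the top. Sord stood at rank 60 of the genes nearest to Slc2a5 and Akr1b3 at rank 1471. These are descriptions over libraries that share groups, scaling and tissue content.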

How the data were processed

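Laser-captured late proximal tubules of mouse kidney were sequenced as total RNA from 0.5 ng of input (DV200 above 30%, SMARTer stranded pico kit), per the labels. The authors deposited log10 values of TPM for 19068 genes in 52 columns, on the build GRCm38 per the submitters' processing notes. Aligner, annotation and read numbers: not given in the sources used here. The labels list 54 samples, of which 2 Akita wild-type samples (semaglutide replicate 1 and dapagliflozin replicate 2), without a column in the table, were not analysed here. TPM was recovered from the log10 values, with a blank cell read as 0 TPM. Positions came from GENCODE M21 (19033 genes matched).

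The 15424 genes whose mean reached 1 TPM were fitted as log2(TPM + 1) by limma 3.58.1 in R 4.3.3, with a mean for each of 9 groups and the trend and robust options of eBayes, and p-values were adjusted by Benjamini-Hochberg over all tested genes, with a threshold of 0.05. Averaged comparisons weight 4 strata equally and leave out semaglutide. A pseudocount of 1 understates the change of low genes. The labels number each library on its own, so that replicate numbers pair nothing. The 23 comparisons share one estimate of spread. The fit was tested on simulated data. Correlations were run in Python 3.11.15 with scipy 1.17.1.

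The 5 genes, the pathway and marker lists and the tests were chosen with earlier results of these data known. Named are the 5 genes, up to 4 genes of each pathway list that passed in the averaged or the wild-type vehicle comparison of diabetes, with Slc2a2, Slc5a10 and Akr1b8 always, the 3 genes most correlated with each of the 5, and genes within 100 kb of Khk. Of the genes so named, 1 stays in the counts and medians but is not reported here. Slc7a13, Slc5a1 and Slc5a2 are given as checks of the labels. Other markers, Akr1b7, Akr1b10 and Akr1a1 are named for their level. Alternatives were a pseudocount of 0.1, no filter, median-ratio scaling, scaling without mitochondrial ribosomal RNA, array weights, marker scores as covariates, the compared groups alone, and libraries left out.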

Additional observations from a re-analysis of the deposited data

Results flagged for a closer look

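For each of the 5 genes in each of the 9 groups, the highest and the lowest library were compared with the rest of their group by the gap to the nearest library as a share of the group's range; 2 of 45 sets were flagged, and chance flags about 1 in 20. In nondiabetic knockout vehicle mice the highest Slc2a5 library stood at 404 TPM with the next at 193 TPM, a gap of 0.665 of the range over 6 libraries. In Akita knockout dapagliflozin mice the highest Slc2a5 library stood at 829 TPM with the next at 432 TPM, a gap of 0.671 of the range over 6 libraries, and this was the highest Slc2a5 value of the series.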

How the results depend on the processing

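Over the alternatives that left out no single library, 916 of 966 values of the 5 genes, the pathway lists and the counts stayed on their side of the threshold with their direction (counts within 1.5 times), 18 turned their sign, 15 no longer passed and 17 counts moved. None of the 18 had passed the test, and 2 of the 15 were correlations within groups that median-ratio scaling took to r 0.249 (Khk and Akr1b3) and 0.245 (Sord and Akr1b3). With 1 library left out, 1912 of 1977 stayed, 41 turned their sign, 13 no longer passed, 4 passed newly and 7 counts moved. No paired analysis was possible because the labels number the libraries without repeats across groups. Values below are log2 differences, and the cause was not tested except where a fit names it.

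In the comparison of diabetes in wild-type vehicle mice 2 of the 5 genes passed, against 0 with scaling without mitochondrial ribosomal RNA, with the marker score of other cells, without the 3 libraries of highest score and with the compared groups alone, and from 0 to 3 with 1 library left out. In the averaged comparison 4 passed, against 1 with that score and 2 without the 3 libraries. Of the pathway lists in it, fructolysis went from 6 to 3 and the ChREBP list from 4 to 2 with the score, the polyol list from 2 to 1 with scaling without mitochondrial ribosomal RNA and to 0 with the score or without the 3 libraries, and purine breakdown from 1 to 0 under 6 alternatives (no filter, that scaling, array weights, the score, without the 3 libraries, groups alone).

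Scaling without mitochondrial ribosomal RNA, under which the median difference of all genes ran from -0.22 to 0.38 over the 23 comparisons, turned Akr1b3 to 0.19 for diabetes on dapagliflozin in wild-type mice and to 0.0586 for the averaged knockout. It turned Sord to 0.0133 for the knockout in Akita vehicle mice, 0.0225 for the averaged knockout, 0.0668 for dapagliflozin in Akita wild-type mice, 0.0018 for averaged dapagliflozin, 0.13 for semaglutide against vehicle, 0.0633 for semaglutide against dapagliflozin and 0.0324 for the interaction of diabetes and dapagliflozin. Khk turned to 0.0059 for Akita semaglutide against nondiabetic vehicle. Relative to the median of all genes in the same comparison, these values kept the sign they had without this scaling. They were then -0.0073 and -0.0406 for Akr1b3 and -0.0368 for Khk. For Sord they were -0.0634, -0.0767, -0.0903, -0.0228, -0.0926, -0.0002 and -0.2027, in the order above. Array weights turned Akr1b3 to 0.0924 for diabetes on dapagliflozin in wild-type mice and Sord to 0.0219 for averaged dapagliflozin. Sord for semaglutide against dapagliflozin turned to 0.0021 with median-ratio scaling and to 0.1273 with the score of other cells. For Akita semaglutide against nondiabetic vehicle Khk turned to 0.0223 with the S1 and S2 score, and without the 3 libraries Slc2a5 turned to -0.20 and Akr1b3 to -0.0147. Akr1b3 turned to -0.0457 for the interaction without the 3 libraries.

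With 1 library left out, Akr1b3 ran from -0.11 to 0.0181 for diabetes in wild-type vehicle mice, from -0.20 to 0.13 for diabetes on dapagliflozin in wild-type mice and from -0.0802 to 0.11 for the interaction. Sord ran from -0.0653 to 0.0032 for averaged dapagliflozin, from -0.19 to 0.0116 for dapagliflozin in Akita wild-type mice and from -0.14 to 0.0680 for semaglutide against dapagliflozin. For Akita semaglutide against nondiabetic vehicle the range was -0.0099 to 0.48 for Slc2a5, -0.19 to 0.14 for Khk and -0.0303 to 0.18 for Akr1b3. Read depth is unknown, so what it limits could not be computed.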
